A study of Mus musculus with 15 samples.

Results

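Expression of 36 genes of collagens and the extracellular matrix was described in mouse pancreatic islets. The genes were chosen by name, and a gene was kept where the deposited count table had a row for it. All 36 had a row among the 24060 entries of the table, and all 36 passed the filter on low counts that left 15460 entries for testing. By role they were 5 chains of fibrillar collagens, 8 basement membrane genes, 5 chains of collagen VI and of fibril-associated collagens, 3 small leucine-rich proteoglycans, 10 glycoproteins and elastic fibre genes, and 5 proteases and protease inhibitors.

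RNA came from pancreatic islets of FVB/NJ mice aged 9 to 10 weeks, in 5 groups of 3 libraries. WT mice carried no transgene. hIAPP mice carried human IAPP, the gene of islet amyloid polypeptide, a beta-cell hormone whose human form can assemble into amyloid fibrils. rIAPP mice carried the rodent form, which does not form them. hCAST mice carried human CAST, which encodes calpastatin, the endogenous inhibitor of calpain proteases, and hIAPP_hCAST mice carried human IAPP together with human CAST. Per the labels, each transgene was driven by an insulin promoter, so the transgene was directed to beta cells and not to the stromal cells that make most matrix. The labels do not say whether the libraries of a group came from separate mice, and p-values then measure only the spread between libraries, which may be technical. The numbers in the sample titles run in a range shared by WT and hCAST, in another shared by hIAPP and hIAPP_hCAST, and in a separate range for rIAPP. In every comparison other than hCAST with WT and hIAPP_hCAST with hIAPP, and other than the interaction of both transgenes, whatever these ranges stand for cannot be told apart from the IAPP transgene.

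The extracellular matrix is the protein scaffold between and beneath cells. Fibrillar collagens bundle into the tensile fibres of interstitial tissue, whereas type IV collagen and laminins form the sheet-like basement membrane, tied together by nidogens. In mouse islets the basement membrane lies around the capillaries and is made largely by endothelial cells, and fibroblasts, stellate cells and pericytes are the usual sources of interstitial matrix. Metalloproteases cut these proteins and tissue inhibitors of metalloproteases (TIMPs) hold the proteases in check, so matrix turnover depends on their balance.

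Levels are given as CPM, which are read counts relative to the library size after trimmed-mean (TMM) scaling. Libraries held 28287011 to 40191501 counts. Entries rich in ribosomal sequence (Rn45s, Mir6236 and Lars2) took 94.3% of the counts in WT 2, 68.9% in WT 3 and 67.7% in rIAPP 2. This left these libraries 1667190, 8796210 and 9510502 counts for all remaining genes, whereas the remaining 12 libraries had 30199765 to 40062153. The 36 matrix genes received 3362 counts in WT 2 and 21388 to 152450 in the rest. A count of 0 in WT 2 allows up to 3 counts, or 1.31 CPM, and this limit covers counting error only. Mfap5 and Thbs2 were the members with 0 counts there. Beta-cell markers summed to 116038 to 125846 CPM in WT and 39143 to 50921 in rIAPP, with hIAPP, hCAST and hIAPP_hCAST between these ranges. Markers of acinar cells, which make digestive enzymes, were also abundant and varied within groups, from 12850.0 to 58569 CPM in WT and from 7638 to 110961 in hIAPP_hCAST.

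Most matrix genes were higher in islets with either IAPP transgene than in WT islets. The summed level of the 36 genes was 1186, 1472 and 1649 CPM in WT and 1345, 1422 and 1791 in hCAST. It was 2734, 2536 and 2514 CPM in rIAPP, 2880, 2651 and 2393 in hIAPP, and 1859, 1864 and 1059 in hIAPP_hCAST. Every rIAPP and hIAPP library lay above every WT and hCAST library. The hIAPP_hCAST libraries lay below all hIAPP libraries, and hIAPP_hCAST 3 lay below all WT libraries. In bulk islets, a change in the number of cells that express a gene and a change in RNA per cell cannot be told apart.

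Against WT, 28 of the 36 genes rose in hIAPP islets, 0 fell and 8 did not pass (edgeR quasi-likelihood test, Benjamini-Hochberg adjusted p under 0.05 over all tested genes). In this comparison 11.9% of all tested genes were called, 6.27% higher and 5.59% lower, against 77.8% of the members called higher. Their median log2 fold change was 1.37, against 0.02 over all tested genes, and the 3 hIAPP libraries lay wholly above the 3 WT libraries in 32 of the 36, against 17.9% of tested genes. In 0 of the 36 they lay wholly below, against 15.2% of tested genes. Against the same WT libraries, 23 of the 36 rose in rIAPP islets, 0 fell and 13 did not pass, with a median of 0.85 against 0.01. There the background was 23.3% called, 10.7% higher and 12.6% lower, and 28 of the 36 had rIAPP libraries wholly above WT, against 21.7% of tested genes. Both comparisons use the same 3 WT libraries, so they are not independent.

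**Figure D1:**
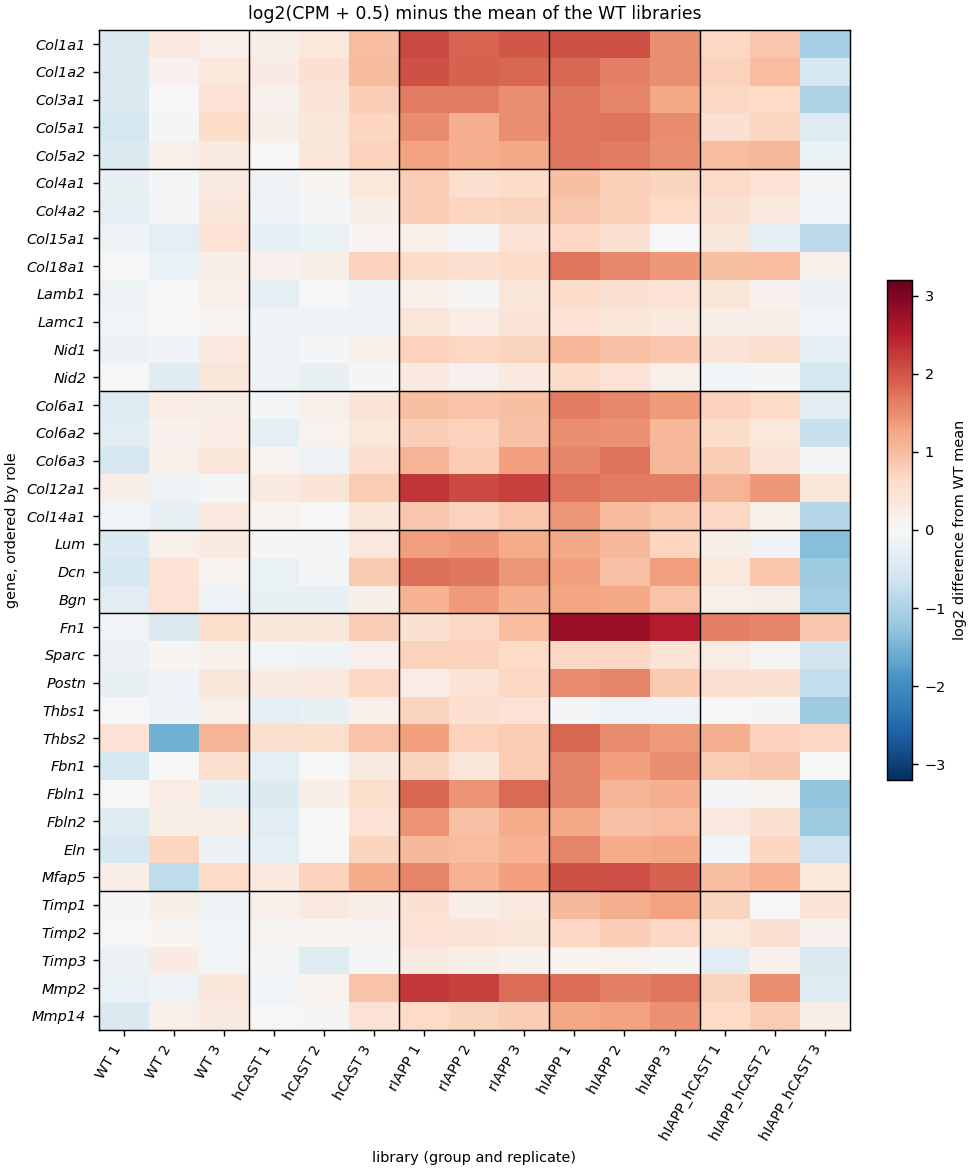
Each row is a matrix gene, ordered by role, and each column an islet library. Colour gives log2 of CPM plus 0.5 minus the mean of the 3 WT libraries. The rIAPP and hIAPP columns are red for most genes, Fn1 is darkest in hIAPP, and hIAPP_hCAST 3 is pale or blue for most genes.

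The counts of calls depended on the libraries used, for members and for all tested genes. With all libraries, 1833 of 15460 tested genes were called in hIAPP and 3599 in rIAPP. Without WT 1, which had the lowest value of its group in 24 of the 36 genes, 12 members were called in hIAPP and 7 in rIAPP. Over all tested genes this fit called 1390 and 2746. Without hIAPP 1 or without hIAPP 2, 18 were called in hIAPP, against 1197 and 1003 of all tested genes. Without the 3 libraries rich in ribosomal RNA, 9 were called in each comparison, with member medians of 1.60 in hIAPP and 1.25 in rIAPP. Over all tested genes this fit called 383 and 1525. With hCAST in place of WT, 22 were called in hIAPP and 18 in rIAPP, against 1112 and 3456 of all tested genes. On log2 of FPKM plus 1, 36 were called in hIAPP and 15 in rIAPP, where the median of all tested genes was itself shifted by 1.26 and 0.80. Fn1, Timp2, Mmp14, Mfap5, Fbn1, Col5a1 and Col6a1 were called in hIAPP under all 17 alternatives that were run, and Col12a1 and Col1a2 were called in rIAPP under all 17.

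**Figure D2:**
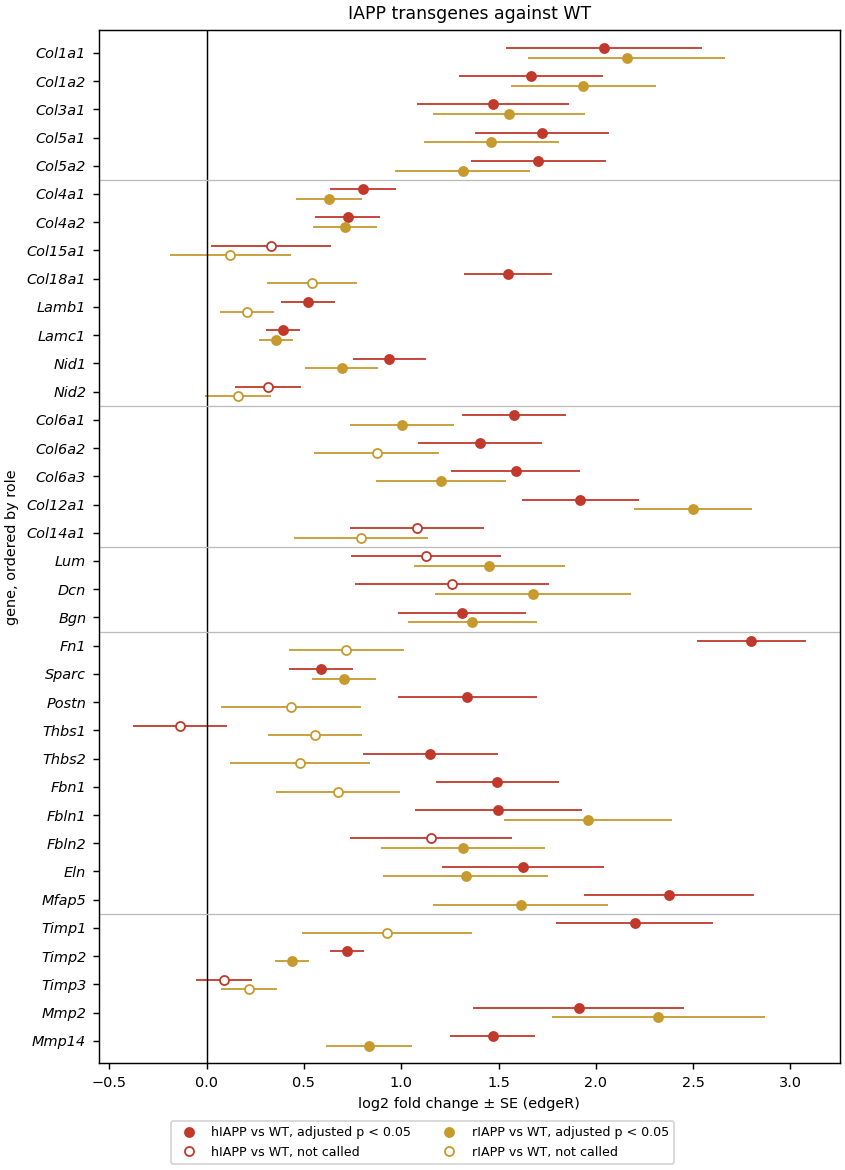
Log2 fold change of each matrix gene against WT (x axis, log2 units; bars, standard error), for hIAPP (red) and rIAPP (gold). Filled points passed an adjusted p of 0.05 and open points did not. All points other than Thbs1 in hIAPP lie to the right of 0, and Fn1 shows the widest gap between the red and the gold point.

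Some cell-type markers moved with these genes. Beside all marker counts against WT stand the shares over all tested genes, 6.27% higher and 5.59% lower in hIAPP. In rIAPP these shares were 10.7% and 12.6%. Fibroblast and stellate cell markers, a list of 14 that holds no member, summed to 26.4 to 33.1 CPM in WT, 29.1 to 41.5 in hCAST, 87.0 to 98.1 in rIAPP, 61.4 to 66.3 in hIAPP and 24.9 to 48.9 in hIAPP_hCAST. Of its 12 tested genes, 5 rose in hIAPP and 9 in rIAPP against WT, with 0 falling. Nkx3-2, Twist2 and Lrat of that list were at 0 counts in several libraries. Pericyte and smooth muscle markers, 13 in the list, summed to 222 to 282 CPM in WT, 227 to 273 in hCAST, 268 to 302 in rIAPP, 394 to 473 in hIAPP and 256 to 361 in hIAPP_hCAST. Of 12 tested, 9 rose in hIAPP and 3 in rIAPP. The fibroblast sum was therefore higher in rIAPP than in hIAPP and the pericyte sum higher in hIAPP than in rIAPP, with no overlap between libraries. The higher fibroblast sum did not hold marker by marker. In hIAPP against rIAPP, 5 of the 12 tested had positive and 7 negative log2 fold changes. Their median was -0.10, with 1 called higher and 1 lower. The part of these cell types in the matrix result was not tested.

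Endothelial markers, 12 in the list, summed to 611 to 739 CPM in WT, 865 to 891 in rIAPP and 689 to 735 in hIAPP. Of 12 tested, 9 rose in rIAPP, and in hIAPP 0 rose and 1 fell. Macrophage markers, 18 in the list, summed to 84.9 to 122 CPM in WT, 77.0 to 99.98 in rIAPP, 327 to 458 in hIAPP and 190.1 to 319 in hIAPP_hCAST, and 14 of 18 rose in hIAPP against 0 in rIAPP. Mesothelial markers, 6 in the list, summed to 151 to 203 CPM in rIAPP and to at most 30.8 in any other library. Upk3b, Lrrn4 and Wt1, which define that cell type, were each at 0 counts in several libraries. Only 2 of the 6 were tested, and in rIAPP 1 rose, at 3.15, and 1 fell, at -1.04, so the higher sum did not hold for both. In hIAPP 0 passed. Acinar markers, 20 in the list, summed to 12850.0 to 58569 CPM in WT, 35415 to 74976 in hCAST, 77878 to 109241 in rIAPP and 49373 to 109146 in hIAPP. Of the 20, 0 passed in hIAPP and 1 rose in rIAPP, but all 20 log2 fold changes were positive in both, with medians of 1.08 in hIAPP and 1.38 in rIAPP. The rIAPP libraries lay wholly above WT in 20 of the 20, against 21.7% of tested genes. The hIAPP libraries did so in 3, against 17.9%. Of 11 duct markers, 1 rose in hIAPP, and in rIAPP 3 rose and 1 fell. Of 10 Schwann cell markers, 2 rose in each comparison. Of 10 beta-cell markers, 8 fell in hIAPP and 10 in rIAPP, and of 8 markers of other endocrine cells 0 passed in hIAPP and 1 rose and 2 fell in rIAPP. The part of each of these cell types in the matrix result was not tested either.

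**Figure D3:**
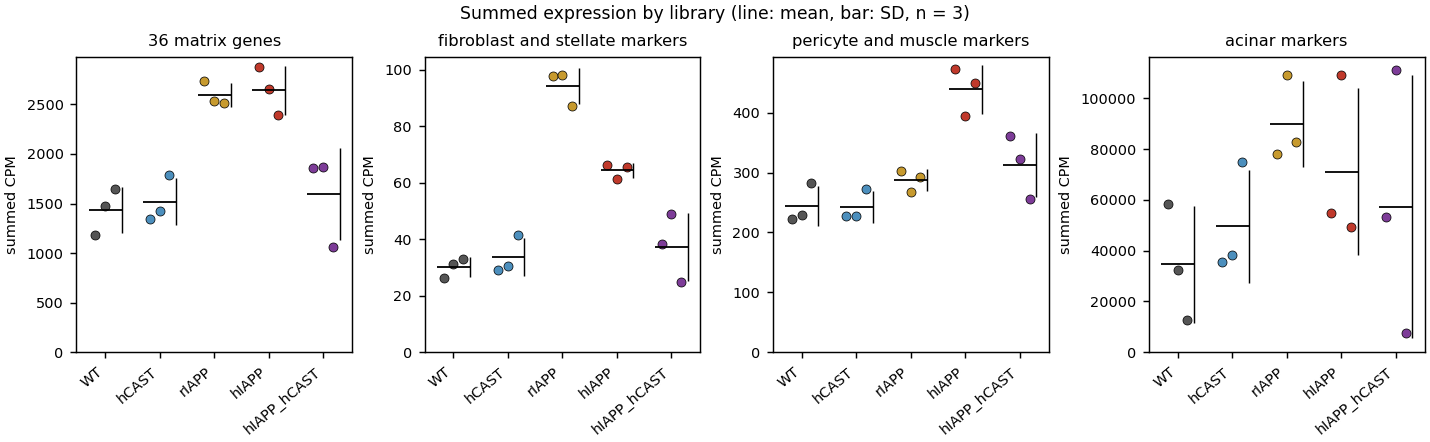
Summed CPM in each library (points) of the 36 matrix genes and of the fibroblast and stellate, pericyte and muscle, and acinar marker lists, with group mean (line) and SD (bar, n = 3). Matrix and fibroblast sums separate rIAPP and hIAPP from WT and hCAST, the pericyte sum is highest in hIAPP, and acinar sums in rIAPP lie above all WT and hCAST libraries while those in hIAPP overlap both.

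Fibrillar collagens rose in both transgenic groups. Changes of single genes are given as log2 fold changes with their standard error (SE). All 5 chains were called in hIAPP and all 5 in rIAPP, with log2 fold changes of 1.47 to 2.04 and of 1.32 to 2.16 against WT. Col5a1 encodes a chain of type V collagen, which starts type I fibrils and limits their width, and lies at chr2:27886425-28039514, plus strand (GRCm38). It had 4.45, 6.57 and 10.3 CPM in WT, 7.68, 8.82 and 11.1 in hCAST, 20.02, 15.7 and 19.9 in rIAPP, 23.2, 23.7 and 20.3 in hIAPP and 9.69, 11.2 and 4.92 in hIAPP_hCAST. All rIAPP and hIAPP values were above all WT and hCAST values, and hIAPP_hCAST ranged from 4.92 to 11.2. The log2 fold change was 1.72 ± 0.346 (SE, adjusted p = 0.00871) in hIAPP and 1.46 ± 0.349 (SE, adjusted p = 0.00942) in rIAPP. Col1a2, the alpha-2 chain of type I collagen (chr6:4504814-4541544, plus strand), had 31.6, 47.7 and 55.3 CPM in WT, 52.6, 61.6 and 88.3 in hCAST, 182, 163 and 156 in rIAPP, 158, 135 and 124 in hIAPP and 72.8, 86.9 and 30.6 in hIAPP_hCAST. It rose by 1.94 ± 0.373 (SE, adjusted p = 0.00352) in rIAPP and by 1.67 ± 0.370 (SE, adjusted p = 0.0174) in hIAPP, and libraries of these groups did not overlap WT. Its partner chain Col1a1 rose by 2.04 ± 0.503 SE in hIAPP and 2.16 ± 0.506 in rIAPP, and Col3a1, the reticular fibre collagen, by 1.47 ± 0.390 in hIAPP and 1.55 ± 0.391 in rIAPP. Col5a2 rose by 1.70 ± 0.346 in hIAPP and 1.32 ± 0.348 in rIAPP.

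Col3a1 and Col5a2 are neighbours on chromosome 1, 24614 bases apart and on opposite strands. To show what lies in front of members that moved together, RefSeq promoter windows (assembly GRCm38.p6) were read for the 23 members that matched by symbol, in 27 windows. Each sequence below holds the 250 bases before the RefSeq start, 5′ to 3′ on the plus strand, with matches to 5 motifs in capitals. Col5a1 and Col3a1 stand for the fibrillar collagens, and Mmp14 and Timp1 for genes that differed between hIAPP and rIAPP.
Col5a1 (chr2:27886175-27886424): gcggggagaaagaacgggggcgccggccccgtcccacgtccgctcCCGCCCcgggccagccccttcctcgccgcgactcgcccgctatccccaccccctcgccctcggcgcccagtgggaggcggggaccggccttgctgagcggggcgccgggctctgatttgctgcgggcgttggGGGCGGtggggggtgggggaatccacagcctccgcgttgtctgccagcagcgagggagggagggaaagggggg
Col3a1 (chr1:45311288-45311537): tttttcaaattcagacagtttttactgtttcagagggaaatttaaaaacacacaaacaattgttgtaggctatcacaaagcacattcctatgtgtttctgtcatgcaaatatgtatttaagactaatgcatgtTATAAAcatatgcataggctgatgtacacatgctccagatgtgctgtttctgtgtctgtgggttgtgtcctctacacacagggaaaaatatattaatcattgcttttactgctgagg
Mmp14 (chr14:54431348-54431597): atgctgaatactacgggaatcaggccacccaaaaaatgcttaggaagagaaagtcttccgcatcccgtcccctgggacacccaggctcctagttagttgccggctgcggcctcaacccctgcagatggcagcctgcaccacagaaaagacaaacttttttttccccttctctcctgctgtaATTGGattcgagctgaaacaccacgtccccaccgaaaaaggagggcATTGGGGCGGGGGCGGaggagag
Timp1 (chrX:20869916-20870165): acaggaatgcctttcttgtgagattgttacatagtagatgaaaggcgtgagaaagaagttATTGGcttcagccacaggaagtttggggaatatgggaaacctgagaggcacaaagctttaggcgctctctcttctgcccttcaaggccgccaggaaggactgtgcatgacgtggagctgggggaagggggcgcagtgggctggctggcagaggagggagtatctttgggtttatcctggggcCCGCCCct
The motifs were the TATA box (TATAAA), the CCAAT box (CCAAT, or ATTGG on the other strand), the GC box (GGGCGG, or CCGCCC), the AP-1 motif (TGANTCA) and the E-box (CACGTG), each searched on both strands. In Col5a1 the capitals mark GC boxes starting 205 and 73 bases before the start, and in Col3a1 a TATA box at 117 bases. In Mmp14 they mark CCAAT boxes at 69 and 23 bases and GC boxes at 19 and 13 bases, where the CCAAT box at 23 overlaps the GC box at 19 by its last base. In Timp1 they mark a CCAAT box at 190 bases and a GC box at 8. A GC box was in 16 of the 27 member windows (59.3%), against 32.7% of all 32851 windows. CCAAT was in 37.0% against 33.8%, TATAAA in 11.1% against 12.4%, the AP-1 motif in 3.70% against 6.75% and the E-box in 7.41% against 6.02%. These matches describe letters only, and no binding was measured.

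Most basement membrane genes rose in hIAPP. Of 8, 6 rose in hIAPP (median of the 8, 0.62) and 4 rose in rIAPP (median 0.45). Col4a1 and Col4a2, the main chains of the type IV collagen network, are a head-to-head gene pair on chromosome 8 whose annotated ends overlap by 22 bases. Col4a2 (chr8:11312805-11449287, plus strand) had 98.7, 118 and 157 CPM in WT, 111, 119 and 142 in hCAST, 213, 197 and 202 in rIAPP, 222, 207 and 189 in hIAPP and 172, 151 and 114 in hIAPP_hCAST. It rose by 0.71 ± 0.165 (SE, adjusted p = 0.00660) in rIAPP and by 0.72 ± 0.165 (SE, adjusted p = 0.0136) in hIAPP. Col4a1 rose by 0.63 ± 0.170 SE in rIAPP and 0.80 ± 0.170 in hIAPP. Nid1, the nidogen that bridges laminin and type IV collagen (chr13:13437551-13512269, plus strand), had 29.9, 31.5 and 42.2 CPM in WT, 31.1, 32.6 and 38.3 in hCAST, 57.4, 54.7 and 56.7 in rIAPP, 72.1, 65.9 and 62.1 in hIAPP and 45.7, 48.9 and 27.7 in hIAPP_hCAST. All its rIAPP and hIAPP values lay above WT, with changes of 0.69 ± 0.188 (SE, adjusted p = 0.0159) in rIAPP and 0.94 ± 0.187 (SE, adjusted p = 0.00649) in hIAPP. Nid2 did not pass, at 0.32 (adjusted p = 0.237) in hIAPP and 0.16 in rIAPP. It shares 8.45% of its exon bases with Rtraf on the opposite strand, which has no row under that name.

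Among laminin chains, Lamc1 (gamma-1) rose by 0.39 ± 0.0875 SE in hIAPP and 0.36 ± 0.0880 in rIAPP. Lamb1 (beta-1) rose by 0.52 ± 0.137 in hIAPP and stood at 0.21 ± 0.139 in rIAPP, which did not pass (adjusted p = 0.310). Col18a1 encodes the basement membrane collagen that carries endostatin, a fragment known to restrain vessel growth, and lies at chr10:77052178-77166548, minus strand. It had 9.20, 7.88 and 10.6 CPM in WT, 10.2, 10.6 and 15.5 in hCAST, 14.0, 13.5 and 14.2 in rIAPP, 31.2, 27.7 and 25.0 in hIAPP and 18.3, 18.5 and 10.3 in hIAPP_hCAST. All hIAPP values were above all others, and the hIAPP_hCAST values came next other than hIAPP_hCAST 3. It rose by 1.55 ± 0.228 (SE, adjusted p = 0.00104) in hIAPP, whereas rIAPP stood at 0.54 (adjusted p = 0.109). Col15a1, its relative, did not pass in either group, at 0.33 in hIAPP (adjusted p = 0.532) and 0.12 in rIAPP (adjusted p = 0.837).

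Collagen VI, which forms beaded microfibrils close to cells, rose in hIAPP in all 3 chains. Col6a1 (chr10:76708792-76726168, minus strand) had 22.7, 36.3 and 34.7 CPM in WT, 29.4, 34.3 and 41.4 in hCAST, 60.5, 58.2 and 59.6 in rIAPP, 96.5, 89.8 and 79.4 in hIAPP and 51.1, 46.8 and 24.2 in hIAPP_hCAST. The groups did not overlap between hIAPP, rIAPP and WT, in that order from high to low. It rose by 1.58 ± 0.268 (SE, adjusted p = 0.00380) in hIAPP and by 1.005 ± 0.268 (SE, adjusted p = 0.0177) in rIAPP. Col6a3 rose by 1.59 ± 0.330 SE in hIAPP and 1.20 ± 0.333 in rIAPP. Col6a2 rose by 1.40 ± 0.320 in hIAPP and stood at 0.87 in rIAPP (adjusted p = 0.0715). Col12a1 encodes type XII collagen, which decorates the surface of type I fibrils, and lies at chr9:79598991-79718831, minus strand. It had 1.29, 0.876 and 1.002 CPM in WT, 1.40, 1.57 and 2.23 in hCAST, 7.05, 6.22 and 6.56 in rIAPP, 4.63, 4.42 and 4.29 in hIAPP and 2.80, 3.56 and 1.53 in hIAPP_hCAST. Here rIAPP lay above hIAPP and both above WT, with no overlap. The rise was 2.498 ± 0.302 (SE, adjusted p = 1.59e-05) in rIAPP and 1.92 ± 0.3003 (SE, adjusted p = 0.000978) in hIAPP. Col14a1, another fibril-associated collagen, did not pass in either group, at 1.08 in hIAPP (adjusted p = 0.0630) and 0.79 in rIAPP (adjusted p = 0.123), although its libraries in both groups lay above WT.

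Small leucine-rich proteoglycans bind collagen and regulate fibril assembly. All 3 rose in rIAPP and 1 of 3 in hIAPP. Bgn, biglycan (chrX:73483602-73495933, plus strand), had 9.91, 17.5 and 11.6 CPM in WT, 10.7, 10.7 and 14.8 in hCAST, 27.7, 33.5 and 28.5 in rIAPP, 31.2, 30.5 and 24.2 in hIAPP and 14.1, 14.4 and 5.70 in hIAPP_hCAST, and rose by 1.36 ± 0.332 (SE, adjusted p = 0.0109) in rIAPP and 1.31 ± 0.329 (SE, adjusted p = 0.0255) in hIAPP. Both transgenic groups lay above every WT and hCAST library. Lum, lumican (chr10:97565128-97572703, plus strand), had 4.21, 6.57 and 7.25 CPM in WT, 6.04, 5.58 and 7.52 in hCAST, 15.6, 16.1 and 14.1 in rIAPP, 14.1, 12.5 and 9.75 in hIAPP and 6.72, 5.38 and 1.96 in hIAPP_hCAST. Its rise was 1.45 ± 0.390 (SE, adjusted p = 0.0175) in rIAPP, and in hIAPP it stood at 1.13 (adjusted p = 0.0786) with all 3 libraries above WT. Dcn, decorin, rose by 1.68 ± 0.502 SE in rIAPP and stood at 1.26 in hIAPP (adjusted p = 0.131). Lum and Dcn are neighbours on chromosome 10, 46984 bases apart. The difference between hIAPP and rIAPP did not pass for any of the 3, at -0.05 for Bgn (95% interval -0.67 to 0.56), -0.33 for Lum (-1.03 to 0.38) and -0.42 for Dcn (-1.43 to 0.59).

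Fn1 had the highest log2 fold change of the 36 genes in hIAPP against WT. It encodes fibronectin, the adhesive glycoprotein on which other matrix proteins assemble, and lies at chr1:71585520-71653200, minus strand. It had 1.85, 1.31 and 3.16 CPM in WT, 2.70, 2.71 and 3.81 in hCAST, 3.03, 3.48 and 4.44 in rIAPP, 16.3, 16.5 and 13.8 in hIAPP and 7.16, 6.83 and 4.03 in hIAPP_hCAST. All 3 hIAPP libraries were above 13 CPM, the hIAPP_hCAST libraries lay between 4.03 and 7.16, and WT, hCAST and rIAPP lay at or below 4.44. The rise against WT was 2.80 ± 0.280 (SE, adjusted p = 4.02e-05) in hIAPP, whereas rIAPP stood at 0.72 ± 0.294 SE (adjusted p = 0.0908). The WT level rested on 86, 3 and 41 counts. Apol7d, annotated as antisense, shares 2.499% of the exon bases of Fn1, and the strand setting of the counting was not given in the sources used here.

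Of the 10 glycoprotein and elastic fibre genes, 8 rose in hIAPP and 5 in rIAPP. Mfap5, a small protein of elastic microfibrils (chr6:122505845-122529290, plus strand), had 0.516, 0 and 0.848 CPM in WT, 0.600, 0.970 and 1.52 in hCAST, 2.12, 1.41 and 1.67 in rIAPP, 3.12, 3.19 and 2.76 in hIAPP and 1.23, 1.41 and 0.608 in hIAPP_hCAST. It rose by 2.37 ± 0.437 (SE, adjusted p = 0.00312) in hIAPP and 1.61 ± 0.451 (SE, adjusted p = 0.0157) in rIAPP, from low levels in WT. Sparc, a collagen-binding glycoprotein made by many stromal and endothelial cells (chr11:55394500-55423183, minus strand), had 149.8, 177 and 187 CPM in WT, 159.9, 157 and 191 in hCAST, 286, 284 and 266 in rIAPP, 269, 271 and 231 in hIAPP and 203, 182 and 114 in hIAPP_hCAST. Its rise was 0.71 ± 0.165 (SE, adjusted p = 0.00665) in rIAPP and 0.59 ± 0.165 (SE, adjusted p = 0.0341) in hIAPP, with all libraries of both groups above WT. Fbln1, fibulin-1 of elastic fibres and basement membranes (chr15:85205949-85286535, plus strand), had 2.84, 3.50 and 2.39 CPM in WT, 1.98, 3.37 and 4.51 in hCAST, 11.6, 8.66 and 11.4 in rIAPP, 9.65, 6.63 and 7.01 in hIAPP and 2.75, 3.15 and 0.919 in hIAPP_hCAST. The highest values were in rIAPP and hIAPP and the lowest in hIAPP_hCAST 3. Fbln1 rose by 1.96 ± 0.432 (SE, adjusted p = 0.00549) in rIAPP and 1.498 ± 0.429 (SE, adjusted p = 0.0400) in hIAPP. Its call was lost in 0 of 6 fits that left out a library in rIAPP and in 6 of 6 in hIAPP.

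Elastin (Eln) rose by 1.63 ± 0.418 SE in hIAPP and 1.33 ± 0.422 in rIAPP. Fbn1, fibrillin-1 of microfibrils, rose by 1.49 ± 0.314 in hIAPP and stood at 0.68 in rIAPP (adjusted p = 0.1496). It shares 20.1% of its exon bases with Gm9913 on the opposite strand, a gene without a row under that name. Postn, periostin, rose by 1.34 ± 0.356 in hIAPP, at 0.44 in rIAPP (adjusted p = 0.425), and Thbs2 rose by 1.15 ± 0.347 in hIAPP, at 0.48 in rIAPP (adjusted p = 0.363). Fbln2 rose by 1.32 ± 0.420 in rIAPP and stood at 1.15 in hIAPP (adjusted p = 0.0979). Its rIAPP call was lost in 6 of 6 fits that left out a library. Thbs1 encodes thrombospondin-1, known as an activator of latent TGF-beta and an inhibitor of vessel growth (chr2:118111876-118127133, plus strand). It had 69.9, 62.2 and 77.7 CPM in WT, 56.7, 59.1 and 77.3 in hCAST, 114, 102 and 96.4 in rIAPP, 66.8, 62.5 and 63.9 in hIAPP and 69.5, 66.6 and 31.4 in hIAPP_hCAST. All rIAPP values lay above all others, and hIAPP overlapped WT. Neither difference from WT passed, at 0.56 ± 0.243 (SE, adjusted p = 0.122) in rIAPP and -0.14 ± 0.242 (SE, adjusted p = 0.771) in hIAPP, and the latter turned to 1.49 on the deposited FPKM values.

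**Figure D4:**
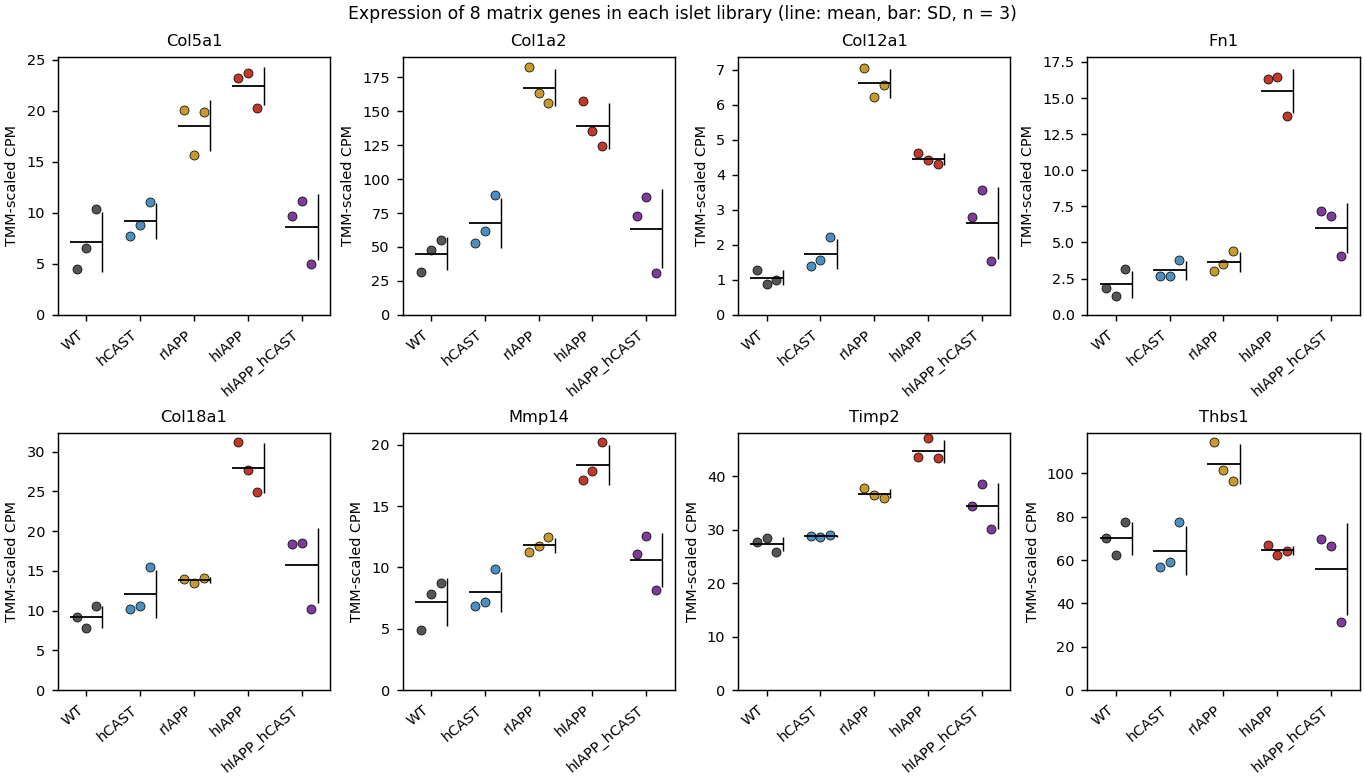
TMM-scaled CPM of 8 matrix genes in each library (points), with group mean (line) and SD (bar, n = 3). Fn1 and Col18a1 are highest in hIAPP, Col12a1 and Thbs1 in rIAPP, and Timp2 is tight within WT, hCAST, rIAPP and hIAPP.

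Among proteases and inhibitors, 4 of 5 rose in hIAPP and 3 of 5 in rIAPP. Mmp14 encodes the membrane-anchored collagenase that activates the secreted gelatinase Mmp2, and lies at chr14:54431612-54445364, plus strand. It had 4.95, 7.88 and 8.71 CPM in WT, 6.88, 7.19 and 9.88 in hCAST, 11.3, 11.8 and 12.5 in rIAPP, 17.1, 17.8 and 20.2 in hIAPP and 11.1, 12.6 and 8.18 in hIAPP_hCAST, in the order hIAPP, rIAPP and WT with no overlap. It rose by 1.47 ± 0.217 (SE, adjusted p = 0.000805) in hIAPP and 0.83 ± 0.221 (SE, adjusted p = 0.0124) in rIAPP. Mmp2 rose by 1.91 ± 0.543 SE in hIAPP and 2.32 ± 0.547 in rIAPP. Its call was lost in 6 of 6 fits that left out a library in hIAPP and in 1 of 6 in rIAPP.

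Timp2, which binds Mmp14 and takes part in Mmp2 activation, lies at chr11:118301069-118355740, minus strand. It had 27.6, 28.5 and 25.8 CPM in WT, 28.9, 28.6 and 29.0 in hCAST, 37.8, 36.6 and 35.98 in rIAPP, 43.5, 47.1 and 43.4 in hIAPP and 34.5, 38.6 and 30.2 in hIAPP_hCAST. Its fold change was small and its spread narrow, with rises of 0.72 ± 0.0870 (SE, adjusted p = 0.000185) in hIAPP and 0.44 ± 0.0878 (SE, adjusted p = 0.00156) in rIAPP. Timp1, an inducible inhibitor (chrX:20870166-20874735, plus strand), had 0.301, 0.438 and 0.231 CPM in WT, 0.420, 0.512 and 0.457 in hCAST, 0.644, 0.444 and 0.513 in rIAPP, 1.17, 1.34 and 1.52 in hIAPP and 0.833, 0.310 and 0.608 in hIAPP_hCAST. WT libraries held 14, 1 and 3 counts of it, and hIAPP libraries 62, 62 and 82. It rose by 2.20 ± 0.403 (SE, adjusted p = 0.00306) in hIAPP and stood at 0.93 ± 0.436 SE in rIAPP (adjusted p = 0.138). Timp3, the matrix-bound inhibitor, did not pass, at 0.09 in hIAPP (95% interval -0.22 to 0.39) and 0.22 in rIAPP (-0.09 to 0.52). Its exons share 21.3% of their bases with Syn3 on the opposite strand, and reads of the 2 genes cannot be told apart where strand was not used.

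The comparison of hIAPP with rIAPP sets the amyloid-forming human peptide beside the rodent one. Of the 36 matrix genes, 5 were higher in hIAPP, 0 were lower and 31 did not pass. The background in this comparison was 13.0% called, 7.71% higher and 5.28% lower, against 13.9% of the members called higher. The member median was 0.23, against 0.01 over all tested genes. The 5 genes were Fn1 at 2.08 ± 0.232 (SE, adjusted p = 1.68e-05), Timp1 at 1.27 ± 0.311 (SE, adjusted p = 0.0108), Col18a1 at 1.01 ± 0.202 (SE, adjusted p = 0.00363), Mmp14 at 0.64 ± 0.186 (SE, adjusted p = 0.0328) and Timp2 at 0.28 ± 0.0805 (SE, adjusted p = 0.0284). They included 3 of the 5 proteases and inhibitors and 0 of the 5 fibrillar collagens. The share called in either direction was near the background, and no pattern by role was read from these counts. Mmp14 and Timp2 lost their calls in most fits that left out a library. Differences of the fibrillar collagens ranged from -0.27 to 0.39. Their standard errors of 0.288 to 0.416 left wide intervals, such as -1.03 to 0.81 for Col1a1.

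Libraries of hIAPP lay wholly above rIAPP in 17 of the 36 genes and wholly below in 4, against 19.8% and 15.7% of tested genes. The 4 below were Col12a1, Dcn, Thbs1 and Timp3. Thbs1 stood at -0.69 ± 0.234 SE and Col12a1 at -0.58 ± 0.227, and neither passed (adjusted p = 0.0761 and 0.116). Postn at 0.90 (adjusted p = 0.102) and Fbn1 at 0.82 (adjusted p = 0.0772) had the highest log2 fold changes among members that did not pass. The macrophage sum was 327 to 458 CPM in hIAPP against 77.0 to 99.98 in rIAPP, and 7 of 12 pericyte markers were higher and 1 lower. Their part in the 5 differences was not tested.

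Fn1 was called under each of the 16 alternatives run. Col18a1 was called in all 6 fits that left out a library. Mmp14 lost its call in all 6, Timp2 in 5 of 6 and Timp1 without rIAPP 3. The count was 3 without rIAPP 1, 3 without rIAPP 2, 2 without rIAPP 3, 3 without hIAPP 1 and 3 without hIAPP 2. Over all tested genes these leave-out fits called 1302 to 1587. With the 3 ribosomal-rich libraries left out, 2 members were called, against 1359 of all tested genes. Other fits called more genes, and some of them lower. The fit of the compared groups alone called 18, 13 higher and 5 lower, and voom with sample weights called 13, 11 higher and 2 lower. Over all tested genes they called 2809 and 3476. DESeq2 and voom each called 6, 5 higher and 1 lower, and log2 of FPKM plus 1 called 2. Over all tested genes these called 2167, 2079 and 316.

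In hCAST islets the matrix genes did not differ detectably from WT. Called genes numbered 0 of 36 in edgeR, with 0 at an unadjusted p under 0.05, against 1133 of all 15460 tested genes. Called members were 0 also in DESeq2 and limma voom, which called 37 and 2 of all tested genes. On the deposited FPKM values, in log2 of FPKM plus 1, 35 were called higher, where the median of all tested genes was itself 1.26 above WT. Over all tested genes 0.0194% were called. Libraries of hCAST lay wholly above WT for Col12a1 and Timp2 (2 of 36, against 7.59% of tested genes) and wholly below for Lamc1 (1 of 36, against 6.57%). The member median was 0.22, against 0.01 over all tested genes, and log2 fold changes ranged from -0.26 to 0.83. For Fn1 the difference was 0.46 (95% interval -0.1505 to 1.08), for Col1a2 0.63 (-0.18 to 1.43) and for Timp2 0.09 (-0.10 to 0.27).

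Of the 36 matrix genes, 2 fell in hIAPP_hCAST against hIAPP islets, Fn1 and Timp2, and 34 did not pass, against a background of 0.466% called, 0.0906% higher and 0.375% lower. All 36 log2 fold changes were negative, with a median of -0.99 against 0.00 over all tested genes. An unadjusted p under 0.05 was found for 32 of the 36, against 1743 of all 15460 tested genes. The hIAPP_hCAST libraries lay wholly below the hIAPP libraries in 33 of the 36, against 8.69% of tested genes. Fn1 fell by 1.37 ± 0.216 SE (adjusted p = 0.0107), from 15.5 ± 1.52 to 6.01 ± 1.72 CPM (SD, n = 3). Timp2 fell by 0.38 ± 0.0796 SE (adjusted p = 0.0464), from 44.7 ± 2.10 to 34.4 ± 4.24 CPM. The next 4 by p were Fbln1 at -1.79 ± 0.367 (adjusted p = 0.0543), Mfap5 at -1.49 ± 0.329 (adjusted p = 0.0543), Col5a1 at -1.39 ± 0.293 (adjusted p = 0.0613) and Mmp14 at -0.80 ± 0.182 (adjusted p = 0.0646).

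By role, the median differences were -1.24 for fibrillar collagens, -0.55 for basement membrane genes, -1.08 for collagen VI and fibril-associated collagens, -1.33 for the proteoglycans, -1.11 for glycoproteins and -0.80 for proteases and inhibitors. The 3 genes whose libraries overlapped were Col15a1, Thbs1 and Timp3. All 12 tested fibroblast and stellate markers had negative log2 fold changes (median -0.94, 2 fell), as did all 12 pericyte and smooth muscle markers (median -0.51, 3 fell) and all 12 endothelial markers (median -0.34, 0 passed). The endothelial sum was 505 to 647 CPM in hIAPP_hCAST against 689 to 735 in hIAPP. Of 18 macrophage markers 17 were negative and 1 fell. The part of these cells in the matrix values was not tested. The count of calls depended strongly on the test and the libraries. It was 20 in DESeq2, 17 in limma voom, 12 in voom with sample weights and 0 in a fit of these 2 groups alone. Over all tested genes the same fits called 285, 281, 114 and 2. The member count was 0 without hIAPP 1, 0 without hIAPP 2, 1 without hIAPP 3, 6 without hIAPP_hCAST 1, 11 without hIAPP_hCAST 2 and 5 without hIAPP_hCAST 3. In the same order, 21, 18, 28, 129, 175 and 79 of all tested genes were called. In each of these fits all calls of members were in the lower direction.

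**Figure D5:**
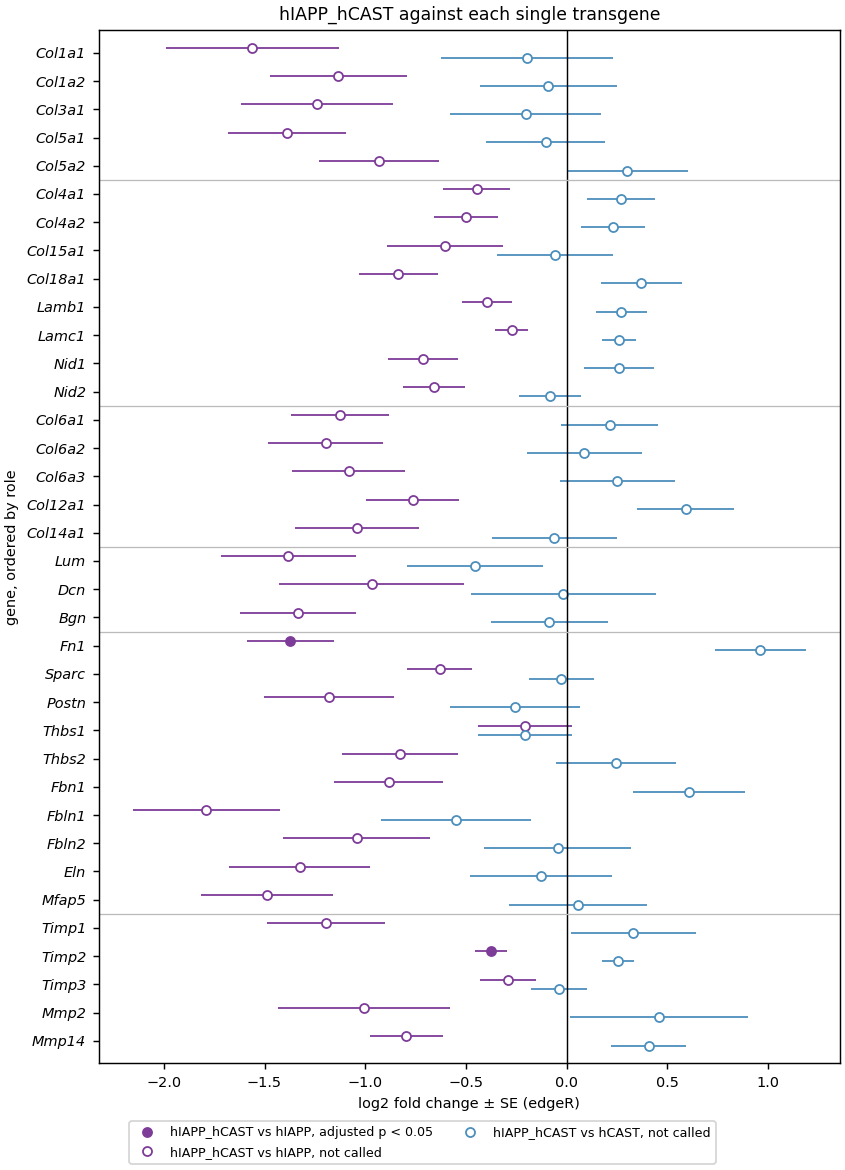
Log2 fold change of each matrix gene in hIAPP_hCAST against hIAPP (purple) and against hCAST (blue), on the x axis in log2 units with standard error bars. Filled points passed an adjusted p of 0.05. All purple points lie left of 0 with Fn1 and Timp2 filled, and the blue points lie on both sides of 0 with none filled.

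Against hCAST, hIAPP_hCAST islets gave 0 of 36 calls in edgeR, where 0.750% of all tested genes were called. An unadjusted p under 0.05 was found for 7, against 1465 of all 15460 tested genes. DESeq2 called 1 member, against 269 of all tested genes. The median was 0.07, with 19 genes above 0 and 17 below. Libraries did not overlap in 3 of 36 with hIAPP_hCAST higher, against 6.64% of tested genes, and in 0 with it lower, against 6.61%. Fn1 was 0.96 ± 0.226 SE (adjusted p = 0.0664) and its 3 hIAPP_hCAST libraries lay above hCAST, as did those of Timp2 at 0.26 ± 0.0800 (adjusted p = 0.204) and Lamc1 at 0.26 ± 0.0827 (adjusted p = 0.212). Without hIAPP_hCAST 3, 6 members were called, all higher, with a member median of 0.35. Of all 15614 genes tested in that fit, 356 were called, 288 of them higher. Of the 18 macrophage markers, 9 were higher in hIAPP_hCAST than in hCAST, and their part in the Fn1 value was not tested.

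Whether the human IAPP difference depended on the CAST background was tested by an interaction, the difference of hIAPP_hCAST from hCAST minus that of hIAPP from WT. In edgeR 0 of the 36 genes and 0 of all tested genes (0%) passed. An unadjusted p under 0.05 was found for 25 of the 36, against 1346 of all 15460 tested genes. DESeq2 called 4 members, against 50 of all tested genes. All 36 values were below 0, with a median of -1.30 against -0.01 over all tested genes. Fn1 had the smallest p at -1.84 ± 0.359 SE (adjusted p = 0.243). Mfap5 stood at -2.32 ± 0.559, Col1a1 at -2.24 ± 0.659 and Timp2 at -0.46 ± 0.118. These values share their libraries with the 2 differences they are made from.

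Within groups, the matrix genes moved together from library to library. hIAPP_hCAST 3 had the lowest value of its group in 35 of the 36 genes, against 39.7% of all tested genes, and hCAST 3 the highest in 34, against 35.2%. WT 1 was lowest in 24, against 27.3% of all tested genes, and WT 3 highest in 26, against 30.5%. In rIAPP and hIAPP, rIAPP 2 was lowest in 23, against 39.7%, and hIAPP 3 lowest in 27, against 39.3%. The median SD of log2 values over the members was 0.548 in hIAPP_hCAST, 0.353 in WT, 0.25 in hCAST, 0.141 in hIAPP and 0.117 in rIAPP. Over all tested genes it was 0.148, 0.206, 0.101, 0.107 and 0.109 in the same order. The members were thus more variable than other genes in WT, hCAST and hIAPP_hCAST and close to them in rIAPP. hIAPP_hCAST 3 also had the lowest acinar sum of all libraries, at 7638 CPM, and the lowest fibroblast, pericyte, endothelial and macrophage sums of its group. hCAST 3 had the highest acinar sum of its group, at 74976 CPM, and hIAPP 3 the lowest of its group, at 49373. In WT and rIAPP the acinar sums went the other way. WT 1 had the highest acinar sum of WT, at 58569 CPM, and WT 3 the lowest, at 12850. The highest in rIAPP was that of rIAPP 2, at 109241 CPM. The part of tissue carried over with the islets in this variation was not tested.

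Levels of different genes were compared per kilobase of gene length. Sparc ranked first in each group, from 62.9 ± 17.5 CPM per kb in hIAPP_hCAST to 105 ± 3.99 in rIAPP. In WT it was followed by Timp3 at 43.3 ± 7.51, Col4a1 at 37.0 ± 6.99, Col3a1 at 25.1 ± 7.82 and Dcn at 24.4 ± 8.47, where Timp3 and Col4a1 differed by less than their spread, and so did Col3a1 and Dcn. In rIAPP and hIAPP Col3a1 ranked second, at 73.5 ± 4.77 and 69.4 ± 10.9, within the spread of the next gene in the order (Dcn in rIAPP and Col4a1 in hIAPP). Fn1 was at the low end in WT, at 0.2502 ± 0.113, and stood at 1.84 ± 0.181 in hIAPP. Col12a1 ranked last in WT, hCAST, hIAPP and hIAPP_hCAST.

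Ratios between chains of the same protein and between proteins were taken within each library. The level of Col4a1 per kb relative to Col4a2 was 1.93 ± 0.0953 in WT, 2.03 ± 0.0810 in hCAST, 1.80 ± 0.0938 in rIAPP, 2.02 ± 0.0760 in hIAPP and 2.09 ± 0.0770 in hIAPP_hCAST. For Col6a1 relative to Col6a2 it lay between 1.42 and 1.71 as group means, and for Lamb1 relative to Lamc1 between 0.551 and 0.673. Col3a1 relative to Col4a1, interstitial to basement membrane collagen, was 0.668 ± 0.0908 in WT, 1.29 ± 0.123 in rIAPP and 1.07 ± 0.0976 in hIAPP. It was 0.854 ± 0.0570 in hCAST and 0.591 ± 0.216 in hIAPP_hCAST. Libraries of rIAPP, hIAPP and also hCAST lay above WT (0.567 to 0.743 in WT, 1.21 to 1.43, 0.963 to 1.15 and 0.802 to 0.915). Those of hIAPP_hCAST overlapped WT, at 0.345 to 0.747. Fn1 relative to Col3a1 was 0.0267 ± 0.00197 in hIAPP, 0.0276 ± 0.00988 in hIAPP_hCAST, 0.0100 ± 0.00324 in WT and 0.00596 ± 0.00159 in rIAPP. The hIAPP and hIAPP_hCAST libraries (0.0245 to 0.0284 and 0.0215 to 0.0390) lay above all WT and rIAPP libraries on this ratio. These 2 groups overlapped on it, although the Fn1 level itself was lower in hIAPP_hCAST. Mmp2 relative to Timp2 was 0.0915 ± 0.0316 in WT, 0.332 ± 0.0532 in rIAPP and 0.206 ± 0.0215 in hIAPP.

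The genes of related pathways were counted from lists. For these and the lists that follow, the shares over all tested genes were 6.27% higher and 5.59% lower in hIAPP against WT. In rIAPP against WT they were 10.7% higher and 12.6% lower. Of 23 tested genes of collagen synthesis and processing, 5 rose and 0 fell in hIAPP (median 0.24), and 10 rose and 3 fell in rIAPP (median 0.31). Adamts2, the procollagen N-propeptidase, rose by 1.40 ± 0.272 SE in hIAPP and 1.77 ± 0.274 in rIAPP, and fell by 1.23 ± 0.230 in hIAPP_hCAST against hIAPP. Serpinh1, the collagen chaperone HSP47, rose by 0.53 ± 0.110 in hIAPP. In rIAPP it also lay above WT, at 40.7, 37.5 and 40.1 CPM against 29.1, 22.8 and 33.7. Bmp1, the procollagen C-proteinase, fell by 0.39 ± 0.0765 in rIAPP. Of 5 lysyl oxidases, which cross-link collagen and elastin, 3 rose and 0 fell in hIAPP, and 3 rose and 1 fell in rIAPP. Loxl1 had 2.75, 4.38 and 3.55 CPM in WT, 3.22, 3.71 and 3.86 in hCAST, 7.99, 7.99 and 8.57 in rIAPP, 9.63, 9.48 and 7.97 in hIAPP and 3.24, 4.51 and 2.59 in hIAPP_hCAST. It rose by 1.503 ± 0.204 (SE, adjusted p = 0.000360) in hIAPP and by 1.36 ± 0.207 (SE, adjusted p = 0.000146) in rIAPP, and fell by 1.39 ± 0.171 (SE, adjusted p = 0.00125) in hIAPP_hCAST against hIAPP. Loxl2 fell by 0.83 ± 0.131 in rIAPP.

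Of the 30 collagen genes that are not members, 25 were tested, and 7 rose and 0 fell in hIAPP while 8 rose and 1 fell in rIAPP. Col8a1, a short-chain collagen of vessel walls, rose by 1.86 ± 0.237 SE in hIAPP and 1.76 ± 0.239 in rIAPP. Its partner chain Col8a2 had 0.0645, 0 and 0.0771 CPM in WT, 0.220, 0.183 and 0.209 in hCAST, 8.54, 8.29 and 6.96 in rIAPP, 0.397, 0.151 and 0.351 in hIAPP and 0.114, 0.426 and 0.125 in hIAPP_hCAST, at most 0.426 outside rIAPP and at least 6.96 within it. It was called in rIAPP against WT and lower in hIAPP than in rIAPP by 4.69 ± 0.350 SE, with an adjusted p of 1.57e-07. Of 20 further basement membrane genes, 8 rose and 0 fell in hIAPP, and 7 rose and 1 fell in rIAPP. Smoc1, a calcium-binding basement membrane protein, had 3.18, 6.57 and 3.62 CPM in WT, 3.72, 2.91 and 3.22 in hCAST, 32.6, 34.6 and 27.1 in rIAPP, 11.4, 13.5 and 14.7 in hIAPP and 8.33, 6.43 and 6.90 in hIAPP_hCAST, highest in rIAPP, then hIAPP. It rose by 3.11 ± 0.191 (SE, adjusted p = 1.41e-08) in rIAPP and 1.87 ± 0.189 (SE, adjusted p = 3.31e-05) in hIAPP, and was lower in hIAPP than in rIAPP by 1.24 ± 0.147. Lama5, the laminin alpha-5 chain, rose by 1.47 ± 0.141 in rIAPP and 0.83 ± 0.140 in hIAPP, and Lamc3 rose by 2.08 ± 0.337 in rIAPP.

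Among 22 tested further matrix proteases, 10 rose in hIAPP and 7 in rIAPP, and 0 fell in either. Mmp12, the macrophage elastase, rose by 1.62 ± 0.329 SE in hIAPP, and Ctsk, cathepsin K, by 1.41 ± 0.298 in hIAPP and 1.53 ± 0.303 in rIAPP. Plau, the urokinase plasminogen activator, rose by 1.51 ± 0.323 in hIAPP and 2.10 ± 0.325 in rIAPP. Of 24 TGF-beta signalling genes, a pathway known to drive matrix synthesis, 6 rose and 0 fell in hIAPP, and 5 rose and 2 fell in rIAPP. Over all tested genes, 11.9% were called in hIAPP and 23.3% in rIAPP. Ltbp1, which anchors latent TGF-beta in the matrix, rose by 1.45 ± 0.218 in hIAPP and was higher there than in rIAPP by 1.0003 ± 0.191. The receptor Tgfbr1 fell by 0.73 ± 0.0704 in rIAPP, and Tgfbr2 rose by 1.04 ± 0.175 in hIAPP. Of 27 matrix receptors, 8 rose and 2 fell in hIAPP, and 9 rose and 4 fell in rIAPP. Sdc1, syndecan-1, rose by 1.21 ± 0.149 in hIAPP and fell by 0.79 ± 0.125 in hIAPP_hCAST against hIAPP. In rIAPP it also lay above WT, at 8.58, 8.81 and 7.77 CPM against 3.70, 4.82 and 5.17.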

How the data were processed

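Total RNA of islets from 15 mouse samples was prepared with the RNeasy Mini Kit, depleted of ribosomal RNA with Ribo-Zero (TruSeq) and, per the labels, also handled with a NuGEN Ovation kit. STAR, HTSeq and the builds GRCm38 and mm10 are named in the submitters' processing notes. Versions, strand setting and annotation are not given in the sources used here. The authors deposited raw read counts per gene, which were used in the tests, and FPKM values, deposited by the authors per gene and sample, which served as an alternative. Reads of the human transgenes were not analysed here.

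Counts were scaled by TMM and filtered by group size (filterByExpr), and all 5 groups were fitted together in edgeR 4.0.16 (quasi-likelihood test, robust, R 4.3.3) with 7 contrasts and no covariate. P-values were adjusted by Benjamini-Hochberg over 15460 genes, and called means an adjusted p under 0.05. The SE is the log2 fold change divided by the root of the F statistic, and intervals are 95%. Ranges that do not overlap were counted on CPM. Alternatives were DESeq2 1.42.0 with its own size factors, limma 3.58.1 voom with and without sample weights, size factors by relative log expression, other filters, only the compared groups, log2 of FPKM plus 1 or plus 0.1, each library left out, the 3 libraries rich in ribosomal RNA left out, and hCAST in place of WT. Scripts were tested on simulated data. Depth was 28287011 to 40191501 counts per library, and WT 2 held 1667190 counts outside the ribosomal-rich genes, so its low values are the least precise.

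The 36 genes and all lists were chosen with earlier results of these data known, so no p is given for a list. Values in every library are printed for the 2 genes of each role with the smallest p over the 6 pairwise comparisons, and for the 6 with the smallest p in each comparison with a call. From each pathway list up to 4 called genes with the smallest p per comparison and a mean of at least 1 CPM could be named. Gene positions and exon overlaps come from the GENCODE annotation of GRCm38, and promoter windows from RefSeq (GRCm38.p6), where 13 of the 36 genes had no entry.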

Additional observations from a re-analysis of the deposited data

Results flagged for a closer look

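For 5 matrix genes the difference from WT was itself larger in hIAPP than in rIAPP by the edgeR test of that difference, which equals hIAPP against rIAPP because both share the WT libraries. On the log2 scale the difference was 2.08 ± 0.232 (SE, adjusted p = 1.68e-05) for Fn1, 1.01 ± 0.202 (SE, adjusted p = 0.00363) for Col18a1 and 1.27 ± 0.311 (SE, adjusted p = 0.0108) for Timp1. It was 0.28 ± 0.0805 (SE, adjusted p = 0.0284) for Timp2 and 0.64 ± 0.186 (SE, adjusted p = 0.0328) for Mmp14. In each of the 5 genes the 3 hIAPP libraries lay above the 3 rIAPP libraries. Because the genes were chosen by that test on the same values, this adds no support. Of all tested genes, 19.8% separated in this way and 13.0% were called in either direction. Mmp14 lost its call in all 6 fits that left out a library, and Timp2 in 5 of the 6.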

How the results depend on the processing

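No called gene among the 36 changed direction under any alternative run. In some fits, though not in all, the number of genes called moved by over 1.5 times. The cause of these changes was not tested, and leaving out a library changes both the number of libraries and which ones remain. Numbers called were as follows. With each library left out in turn, they were 12 to 23 for hIAPP against WT (28 with all libraries), 7 to 22 for rIAPP against WT (23), 2 to 4 for hIAPP against rIAPP (5), 0 to 0 for hCAST against WT (0), 0 to 11 for hIAPP_hCAST against hIAPP (2) and 0 to 6 for hIAPP_hCAST against hCAST (0). Over all tested genes these leave-out fits called 995 to 1414, 2623 to 3335, 1302 to 1728, 3 to 4, 18 to 175 and 36 to 356, in the same order. Without the 3 ribosomal-rich libraries, members called were 9, 9 and 2 for the first 3 comparisons and 1 for hIAPP_hCAST against hIAPP. Over all tested genes 383, 1525, 1359 and 30 were then called. In a fit of the compared groups alone, hIAPP against rIAPP gave 18 (13 higher, 5 lower) and hIAPP_hCAST against hIAPP gave 0. With voom and sample weights, hIAPP against rIAPP gave 13 (11 higher, 2 lower), hIAPP_hCAST against hIAPP 12 and hIAPP_hCAST against hCAST 3, and voom alone gave 17 for hIAPP_hCAST against hIAPP. DESeq2 gave 20 for hIAPP_hCAST against hIAPP, 1 against hCAST and 4 for the interaction.

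On log2 of FPKM plus 1, calls numbered 15 for rIAPP against WT, 2 for hIAPP against rIAPP, 35 for hCAST against WT, 1 for hIAPP_hCAST against hIAPP and 6 for the interaction. With 0.1 added in place of 1, they numbered 13, 1, 36 and 0 for the first 4. On log2 of FPKM plus 1 the median of all tested genes lay 1.26 above WT in hIAPP, 0.80 in rIAPP and 1.26 in hCAST, and the split of all calls in hIAPP against WT was 12555 higher and 4 lower, against 969 and 864 on counts. Under both FPKM settings 10 uncalled differences turned from negative to positive. In hIAPP against WT this was Thbs1, at 1.49 with 1 added and 1.83 with 0.1. In hCAST against WT the values with 1 and with 0.1 added were 1.76 and 1.99 for Col4a2, 1.21 and 1.75 for Col15a1, 1.15 and 1.73 for Lamb1, 1.33 and 1.78 for Lamc1 and 1.37 and 1.89 for Nid1. They were 0.94 and 1.64 for Nid2, 1.90 and 1.98 for Sparc, 1.49 and 1.83 for Thbs1, and 1.72 and 1.82 for Timp3. No paired analysis was possible because the replicate numbers follow accession order only. Depth limits low genes in WT 2, where 3 counts equal 1.31 CPM.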
